A study of Homo sapiens with 4 samples.

Results

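Genes of cholesterol and fatty acid synthesis were followed in RNA-seq of cells labelled HepG2, a line derived from a human liver tumor. The group holds 33 genes, chosen by symbol from the 59050 symbols of the deposited counts. It consists of 5 regulators of the pathway, 19 sterol genes (18 enzymes of synthesis and the sterol carrier STARD4) and 9 fatty acid genes. The design compares 2 libraries of untreated cells (0 h) with 2 libraries of cells given doxorubicin, a DNA-damaging drug used to activate p53, at a dose of 1 ug/ml over 24 h. All 4 libraries were made from poly(A) RNA of the same line under the same culture conditions, and the series text calls the replicates biological. The comparison asks which mRNAs differ after p53 activation. A treatment without doxorubicin for 24 h and a line without p53 were not analysed here, so time in culture, the drug and p53 cannot be told apart.

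Cells make cholesterol from acetyl-CoA through the mevalonate pathway, and fatty acids from acetyl-CoA through malonyl-CoA. Both branches are switched on by the SREBP transcription factors, which are made as precursors in the membrane of the endoplasmic reticulum. The escort protein SCAP carries them to the Golgi for cleavage when sterols are low, and the INSIG proteins hold SCAP back when sterols are high. INSIG1 is itself a target gene of SREBP, while INSIG2 is not driven by SREBP in the same way. The liver is a main site of both branches.

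The libraries held 27572740 to 36272180 counts, and each of the 33 genes had at least 122 counts in every library. The spread between replicates over all genes was larger in untreated cells. Across the 17479 genes tested, Pearson's r of log2 CPM (counts scaled to an equal library total of 1000000, here with TMM factors) was 0.887 between the untreated replicates and 0.988 between the doxorubicin replicates, a correlation across genes, which are not independent. In 36.6% of genes tested untreated replicate 2 had the highest level of all, and in 45.0% the lowest, so that the main results are given with and without it. Genes that mark liver were at low levels, against the label. Of 10 markers, 5 passed the filter on low counts, ALB had at most 3 counts in a library, and ALB, APOA2, APOH and FOXA2 were at 0 in untreated replicate 1. The summed level of the 10 markers was 1.27 and 2.84 CPM in untreated and 16.6 and 19.6 CPM in doxorubicin libraries, and its part in the results was not tested. In doxorubicin libraries most of it came from the fibrinogen genes FGA, FGB and FGG, with log2 fold changes of 2.57, 3.76 and 6.23. That of HNF4A was 1.68 and that of AFP -0.99, so that 4 of the 5 tested markers were above 0. Without untreated replicate 2, where it had 43 counts, AFP was at 1.24. Without the fibrinogen genes the sum of the other 7 overlapped between the groups, at 0.772 and 2.35 CPM in untreated and 2.74 and 1.74 CPM in doxorubicin libraries. In bulk RNA, fewer cells of a type and less RNA per cell cannot be told apart.

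Most of the 33 genes had lower levels after doxorubicin, and INSIG2 stood against them. In 18 of the 33 genes both doxorubicin libraries lay below both untreated libraries in CPM, against 11.5% of all genes tested. In 1 gene, INSIG2, both lay above, against 30.3% of all genes tested. The 18 genes were 12 of 19 sterol genes, 4 of 9 fatty acid genes and 2 of 5 regulators. With the library totals scaled by TMM factors, which set the bulk of genes equal, the count was 22 lower and 1 higher, against 17.9% and 21.3% of all genes. Set against untreated replicate 1 alone, both doxorubicin libraries were lower in 24 of the 33 genes (24.7% of all genes) and higher in 6 (53.1% of all genes).

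No gene of the 33 passed the study's thresholds, an adjusted p under 0.05 and a fold change of 1 or more in either direction on the log2 scale, in the edgeR quasi-likelihood test of all 4 libraries. In that test 0 of 17479 genes passed in either direction (0.0% up and 0.0% down). The study itself reported mRNAs past these thresholds in both directions, with edgeR and a form of test that it did not name. At an unadjusted p under 0.05 in the quasi-likelihood test, 10 of the 33 genes were lower, against 1.73% of all genes, and 1 was higher, against 2.66%. DESeq2, which called 89 genes in all (0.263% up, 0.246% down), called 0 of the 33 as well, with 8 at an unadjusted p under 0.05 (2.13% of all genes up, 5.17% down). The edgeR exact test (0.235% up, 0.0286% down), the likelihood ratio test (0.32% up, 0.0458% down) and a fit blocked on the replicate number (0.0915% up, 0.0229% down) also called 0 of the 33. The blocked fit had 5 of them at an unadjusted p under 0.05, against 3.56% of all genes up and 2.57% down. The median log2 fold change was -0.57 over the 33 genes and 0.01 over all genes tested, and 29 of the 33 were below 0, against 49.2% of all genes.

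Without untreated replicate 2 the same test, now with a lone untreated library assumed to vary like the doxorubicin libraries, called 713 genes up (3.88%) and 102 down (0.556%). It called 2 of the 33 genes, INSIG2 as higher and DHCR7 as lower. At an unadjusted p under 0.05 it had 1 higher and 18 lower, against 12.2% and 6.9% of all genes. At any fold change, an adjusted p under 0.05 (edgeR) was reached by 11 of the 33 with lower levels, against 1.73% of all genes, and by 1 with higher levels, against 4.61%. Beside DHCR7 the 11 were SREBF1, SREBF2, ACAT2, MVK, FDPS, FDFT1, SQLE, EBP, ACLY and FASN. Without untreated replicate 1 it called 3 of the 33 up and 9 down, against 21.2% and 23.2% of all genes, and had 4 higher and 21 lower at an unadjusted p under 0.05, against 30.4% and 31.8%.

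**Figure D1:**
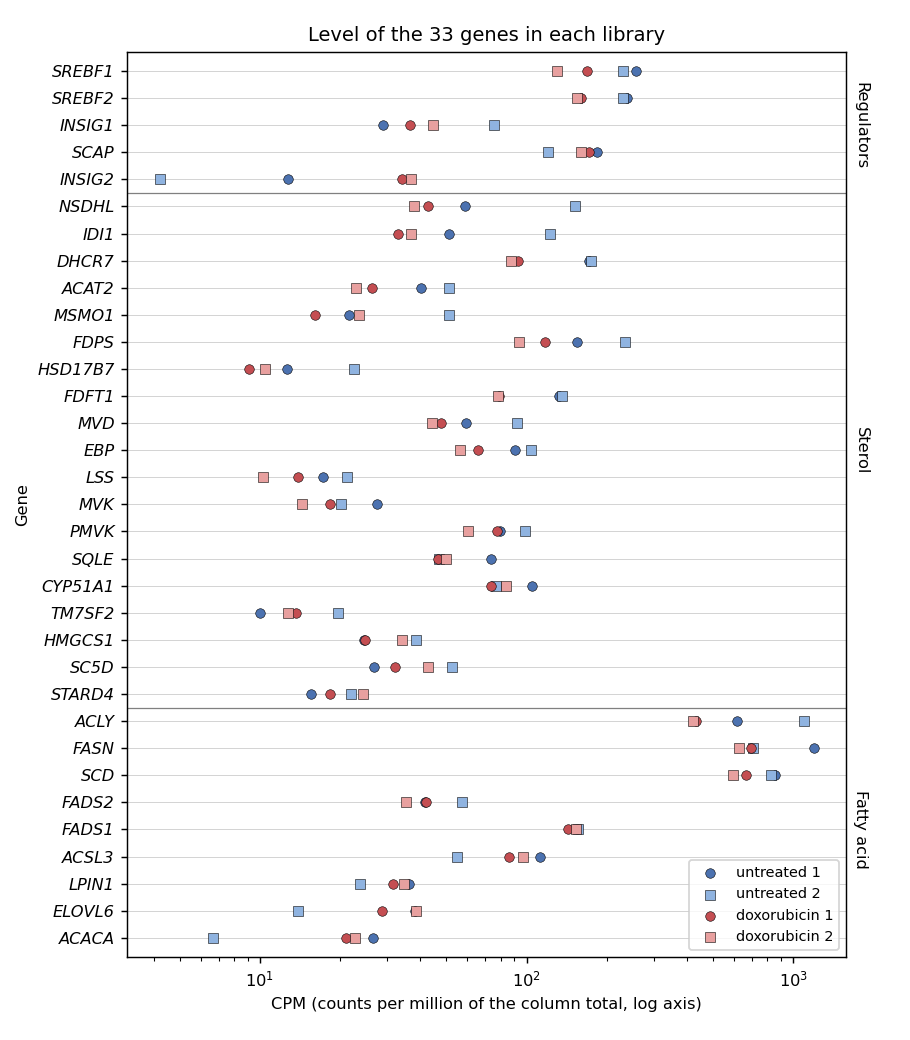
Level of each of the 33 genes in CPM (log axis), 1 point per library, with untreated libraries in blue, doxorubicin libraries in red, circles for replicate 1 and squares for replicate 2. The red points lie left of both blue points in 18 genes and right of them in INSIG2 alone, and the blue square (untreated replicate 2) sits far from the other points in INSIG2, NSDHL, IDI1, ELOVL6 and ACACA.

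Among the regulators, both SREBP genes had lower levels in doxorubicin libraries. SREBF1 (chr17:17810399-17837002, GRCh38) encodes SREBP-1, which mainly drives fatty acid genes, and stood at 257 and 231 CPM in the untreated libraries (replicate 1 is given first throughout) and at 169 and 130 CPM after doxorubicin. The groups did not overlap, and the log2 fold change came to -0.86 (standard error 0.32), with an adjusted p-value of 0.773 (edgeR with Benjamini-Hochberg adjustment, as for all adjusted p-values that follow). SREBF2 (chr22:41833105-41907306) encodes SREBP-2, which mainly drives sterol genes. Its level was 239 and 230 CPM in untreated and 161 and 155 CPM in doxorubicin libraries, a log2 fold change of -0.73 (standard error 0.28). Untreated replicate 2 was close to untreated replicate 1 in both genes, and without it the log2 fold changes were -0.93 and -0.74, with adjusted p-values of 0.00124 and 0.0175. SCAP, the escort of the SREBPs, was at 184 and 121 CPM in untreated and 171 and 159 CPM in doxorubicin libraries. Its groups overlapped, and its log2 fold change of -0.04 (standard error 0.34) was above 0 with library sizes alone.

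The 2 INSIG genes, which encode proteins with the same task of holding SCAP in the endoplasmic reticulum, did not share a pattern. INSIG2 (chr2:118088452-118110997) had 464 and 122 counts in the untreated libraries, and 1171 and 1020 counts after doxorubicin. In CPM these were 12.8 and 4.22 against 34.1 and 37.0, so that both doxorubicin libraries were above both untreated ones. This was a log2 fold change of 1.89, with a standard error of 0.60, an unadjusted p-value of 0.0223 and an adjusted p-value of 0.773. Without untreated replicate 2, its lowest library, the log2 fold change was 1.33 with an adjusted p-value of 0.000136, and without untreated replicate 1 it was 2.99.

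INSIG1 (chr7:155297776-155310235) was at 28.9 and 75.5 CPM in the untreated libraries, against 36.4 and 44.5 CPM after doxorubicin. The doxorubicin libraries lay between the untreated ones. INSIG1 had a log2 fold change of -0.52, with a standard error of 0.53, and without untreated replicate 2 it was 0.34, with the sign turned.

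Within a library, the ratio of INSIG2 to INSIG1 counts needs no scaling between libraries. It was 0.443 and 0.0560 in the untreated libraries, against 0.937 and 0.831 after doxorubicin. The ratio was higher in 2 of 2 doxorubicin libraries than in either untreated library, by a mean of 2.49 on the log2 scale. Untreated replicate 2 set most of that mean, and against untreated replicate 1 alone the difference was 0.99. The exact permutation test over the 4 libraries gave a two-sided p of 0.333, which is the smallest that 2 libraries against 2 can give. Per kilobase of annotated exon (3081 bases for INSIG1, 3562 for INSIG2) the ratio of levels was 0.383 and 0.0484 in untreated and 0.810 and 0.718 in doxorubicin libraries, so INSIG1 remained the more abundant mRNA per length in each library. The summed CPM of both genes was lowest in untreated replicate 1, at 41.7, and was 79.7 in untreated replicate 2 and 70.6 and 81.5 in the doxorubicin libraries.

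**Figure D2:**
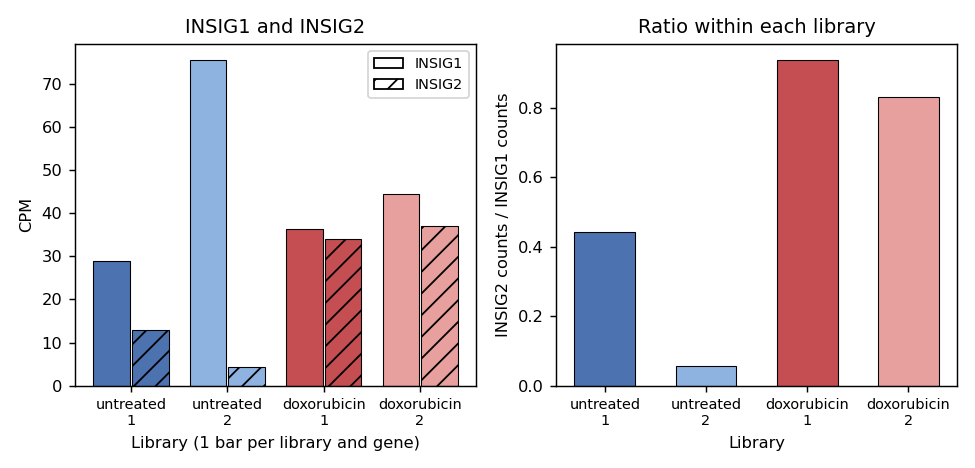
Left, CPM of INSIG1 (plain bars) and INSIG2 (hatched bars) in each of the 4 libraries, and right, the ratio of their counts within each library, 1 bar per library with no error bar. INSIG2 is at 34.1 and 37.0 CPM in doxorubicin libraries and at 12.8 and 4.22 CPM in untreated libraries, while INSIG1 is highest in untreated replicate 2.

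Stretches upstream of 5 genes are printed here to set the INSIG pair beside genes with lower levels after doxorubicin. SREBF2 was included as the gene whose stretch held a sterol regulatory element, and FDPS and DHCR7 as sterol enzymes. Each is 250 bases ending at the base before an annotated transcription start, from the first RefSeq window of the gene (GRCh38.p14), read 5′ to 3′ along the gene. Capitals mark the sterol regulatory element, searched as TCACNCCAC, and the CCAAT box, the site of the factor NF-Y, which is known to act beside SREBP, each on both strands (the CCAAT box reads ATTGG on the other strand).
INSIG1 (chr7:155297628-155297877, plus strand): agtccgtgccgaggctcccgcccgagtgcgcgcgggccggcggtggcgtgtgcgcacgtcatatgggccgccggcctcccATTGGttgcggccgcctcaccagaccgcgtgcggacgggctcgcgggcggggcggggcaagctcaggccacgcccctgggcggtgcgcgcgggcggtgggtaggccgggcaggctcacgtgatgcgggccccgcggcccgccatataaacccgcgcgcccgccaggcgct
INSIG2 (chr2:118088221-118088470, plus strand): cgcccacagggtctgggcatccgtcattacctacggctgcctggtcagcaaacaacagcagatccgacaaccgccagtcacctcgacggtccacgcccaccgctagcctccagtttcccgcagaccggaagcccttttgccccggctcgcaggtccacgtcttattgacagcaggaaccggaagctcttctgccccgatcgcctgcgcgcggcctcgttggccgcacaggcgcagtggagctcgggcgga
SREBF2 (chr22:41832855-41833104, plus strand): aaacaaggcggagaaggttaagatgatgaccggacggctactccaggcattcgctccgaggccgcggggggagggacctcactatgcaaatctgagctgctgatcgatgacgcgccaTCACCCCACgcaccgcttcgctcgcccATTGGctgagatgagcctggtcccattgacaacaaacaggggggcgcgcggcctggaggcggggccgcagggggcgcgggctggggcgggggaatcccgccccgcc
FDPS (chr1:155308616-155308865, plus strand): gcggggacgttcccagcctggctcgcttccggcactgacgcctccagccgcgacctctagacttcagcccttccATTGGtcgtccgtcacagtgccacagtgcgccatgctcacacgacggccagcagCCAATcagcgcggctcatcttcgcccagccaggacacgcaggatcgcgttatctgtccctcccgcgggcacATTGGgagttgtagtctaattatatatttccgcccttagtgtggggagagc
DHCR7 (chr11:71448394-71448643, minus strand): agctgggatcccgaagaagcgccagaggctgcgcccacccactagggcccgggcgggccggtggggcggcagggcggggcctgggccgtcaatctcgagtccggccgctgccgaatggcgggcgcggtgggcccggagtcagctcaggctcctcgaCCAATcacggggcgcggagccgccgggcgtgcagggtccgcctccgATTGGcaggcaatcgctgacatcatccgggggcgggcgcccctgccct

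Taking all RefSeq windows of a gene, the CCAAT box stood in 14 of the 16 sterol genes with a window. It stood in 4 of 8 fatty acid genes and in 2 of 5 regulators. IDI1 and ACACA held it only in windows after the first. Counted by window, it was in 16 of 21 windows of sterol genes, in 6 of 14 of fatty acid genes and in 32.0% of all 35116 windows of the same length. FDPS held 3 CCAAT boxes, DHCR7 held 2, INSIG1 and SREBF2 held 1 each, and none of these letters stood in the INSIG2 stretch. SREBF1, PMVK and FADS1, with both doxorubicin libraries below both untreated ones, held no CCAAT box either. The same was true of SCAP, CYP51A1, ELOVL6, FADS2 and LPIN1. MVK and NSDHL each held 5, the most of any first window. The sterol regulatory element as spelled was found in 1 of 41 windows, that of SREBF2, 133 bases before the start and 27 bases upstream of its CCAAT box. It is in 0.883% of all windows, and many known elements differ from these letters. The GC box (GGGCGG, a site of the factor SP1, which can overlap other GC-rich motifs) was in 36 of 41 windows against 42.6% of all. The E-box (CACGTG) was in 4 of 41 against 6.34%, and the decamer motif of p53 in 2 of 41, those of INSIG1 and MVK, against 5.57%. ACAT2, FDFT1, SQLE and FASN had no entry. A match describes letters in this window, and no binding was measured.

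**Figure D3:**
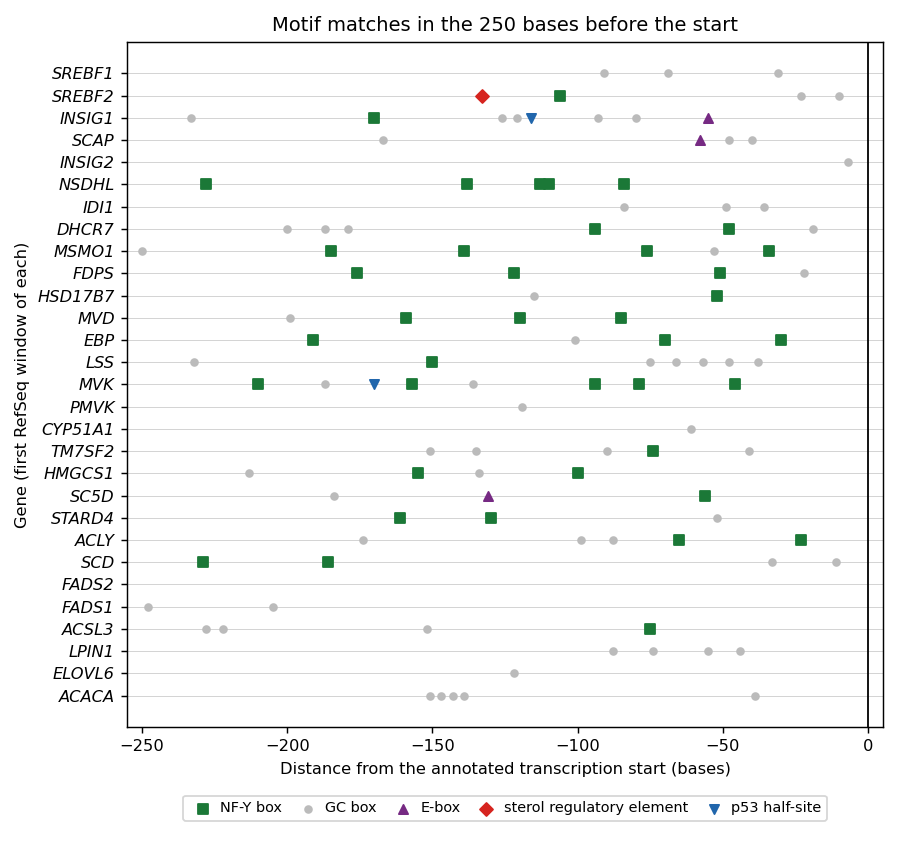
Position of motif matches in the 250 bases before the transcription start, 1 row per gene for the 29 genes with a RefSeq window (first window of each), with the x axis in bases from the start. Green squares (the NF-Y box, searched on both strands) are frequent among the sterol genes. They are absent from INSIG2, and also from SREBF1, PMVK and FADS1 among others. The only red diamond (sterol regulatory element) is in SREBF2. FADS2 has no match in its first window.

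The first steps of sterol synthesis, which build mevalonate and its phosphates, did not all move alike. ACAT2 joins acetyl-CoA units in the cytosol, and was at 40.3 and 51.4 CPM in untreated and 26.2 and 22.8 CPM in doxorubicin libraries. The groups did not overlap, with a difference of -1.05 on the log2 scale (standard error 0.37) and of -0.86 without untreated replicate 2. Exons of ACAT2 overlap those of TCP1 and SOD2 on the other strand, and with the use of strand in counting not stated, reads of these genes may be mixed. HMGCS1, which makes HMG-CoA, was at 24.6 and 38.6 CPM in untreated and 24.7 and 34.0 CPM in doxorubicin libraries, with overlapping groups and a difference of -0.27 on the log2 scale (standard error 0.42).

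MVK phosphorylates mevalonate and was at 27.4 and 20.2 CPM in untreated and 18.4 and 14.4 CPM in doxorubicin libraries. PMVK adds the next phosphate and was at 79.3 and 98.4 against 77.3 and 60.4 CPM, and MVD, which decarboxylates the product, was at 59.2 and 91.8 against 47.9 and 44.2 CPM. In these 3 genes the groups did not overlap, but doxorubicin replicate 1 of PMVK was within 2.06 CPM of untreated replicate 1. Their log2 fold changes were -0.69, -0.52 and -0.87 (standard errors 0.42, 0.35 and 0.38). Without untreated replicate 2 they were -0.88, -0.35 and -0.51, MVK was at -0.38 without untreated replicate 1, and PMVK was at -0.26 without doxorubicin replicate 2.

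The steps from isopentenyl units to squalene included some of the largest differences. IDI1, the isomerase of isopentenyl diphosphate, was at 51.4 and 122 CPM in untreated and 32.8 and 36.8 CPM in doxorubicin libraries. Untreated replicate 2 was 2.38-fold above untreated replicate 1, and the log2 fold change of -1.48 (standard error 0.50) was -0.71 without it (adjusted p-value 0.0504). FDPS, which makes farnesyl diphosphate, was at 154 and 234 CPM in untreated and 117 and 93.8 CPM in doxorubicin libraries, a difference of -1.03 on the log2 scale (standard error 0.36) and of -0.69 without untreated replicate 2.

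FDFT1 joins 2 farnesyl units to squalene, the first step that is committed to sterols. It was at 132 and 136 CPM in untreated and 79.1 and 78.3 CPM in doxorubicin libraries, so that the replicates lay close together in both groups. Its log2 fold change was -0.92 (standard error 0.30) with all libraries and -0.90 without untreated replicate 2 (adjusted p-value 0.0031). SQLE, which oxidises squalene and limits the rate of the later steps, was at 73.6 and 47.2 CPM in untreated and 46.4 and 50.0 CPM in doxorubicin libraries. Its groups overlapped through untreated replicate 2. On the log2 scale the difference was -0.48 (standard error 0.38) with all libraries and -0.76 without that library.

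Of the genes that turn squalene epoxide into cholesterol, DHCR7 differed with close replicates in both groups. DHCR7 (chr11:71428193-71452868) encodes the reductase of 7-dehydrocholesterol, at the end of the pathway. Its counts were 6201 and 5061 in untreated and 3197 and 2410 in doxorubicin libraries, which were 171 and 175 against 93.2 and 87.4 CPM. On the log2 scale the difference was -1.09, with a standard error of 0.30 and an unadjusted p-value of 0.0121, the smallest of the 33 genes. It was between -1.15 and -0.96 with each library left out in turn, and without untreated replicate 2 the adjusted p-value was 0.000141.

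NSDHL, which removes methyl groups from sterol precursors, had the lowest log2 fold change of the 33 genes, at -1.54 (standard error 0.52). Its level was 58.9 and 152 CPM in untreated and 42.8 and 37.9 CPM in doxorubicin libraries. Untreated replicate 2 was 2.58-fold above untreated replicate 1, and without it the log2 fold change was -0.69 (adjusted p-value 0.0543). EBP, an isomerase of the sterol nucleus, was at 90.3 and 104 against 65.6 and 56.2 CPM, a log2 fold change of -0.83 (standard error 0.33). LSS, which closes the sterol rings, was at 17.3 and 21.3 against 13.9 and 10.3 CPM, with a log2 fold change of -0.82 (standard error 0.43). HSD17B7, a ketoreductase of sterol precursors, was at 12.7 and 22.6 against 9.12 and 10.4 CPM, a difference of -1.01 on the log2 scale (standard error 0.48). The groups of these 3 genes did not overlap, and without untreated replicate 2 their log2 fold changes were -0.71, -0.66 and -0.52.

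The other sterol genes had overlapping groups. CYP51A1, the demethylase of lanosterol, was between 73.5 and 105 CPM over the 4 libraries, and TM7SF2, a sterol reductase, between 10.0 and 19.6 CPM. MSMO1, a methyl sterol oxidase, was at 51.0 CPM in untreated replicate 2 and between 16.1 and 23.5 CPM in the others, so that its log2 fold change of -1.04 was -0.28 without that library. SC5D, a desaturase, was between 26.7 and 52.5 CPM. STARD4, which carries cholesterol between membranes, was between 15.6 and 24.3 CPM. Left without untreated replicate 2, HMGCS1, TM7SF2, SC5D and STARD4 had log2 fold changes above 0, at 0.10, 0.26, 0.33 and 0.30. In that fit CYP51A1 was at -0.57.

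The fatty acid genes were split between high and low ones. Per kilobase of exon, SCD, ACLY and FASN were the most abundant of the 33 genes in untreated replicate 1, at 164, 141 and 141 CPM per kilobase, against 2.40 for ACACA in the same library. The 3 abundant genes had lower levels in doxorubicin libraries. ACLY (chr17:41866917-41930542), which makes cytosolic acetyl-CoA from citrate and so feeds both branches, was at 616 and 1097 CPM in untreated and 433 and 421 CPM in doxorubicin libraries. The doxorubicin replicates nearly coincided and lay below both untreated ones. The log2 fold change was -1.16 (standard error 0.36) and -0.67 without untreated replicate 2 (adjusted p-value 0.0300).

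FASN (chr17:82078338-82098294), the synthase of palmitate, was at 1193 and 708 CPM in untreated and 692 and 628 CPM in doxorubicin libraries. The groups did not overlap, but untreated replicate 2 was within 15.9 CPM of doxorubicin replicate 1. The log2 fold change was -0.68 (standard error 0.35) with all libraries, -0.999 without untreated replicate 2 (adjusted p-value 0.000136) and -0.18 without untreated replicate 1. SCD, which introduces the first double bond, was at 858 and 823 against 664 and 596 CPM, with untreated replicates close together. Its log2 fold change was -0.57 (standard error 0.27), and it was between -0.66 and -0.41 with each library left out in turn.

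ACACA, which makes malonyl-CoA, and ELOVL6, which lengthens palmitate, were lowest in untreated replicate 2. ACACA was at 26.6 and 6.68 CPM in untreated and 21.1 and 22.7 CPM in doxorubicin libraries, and ELOVL6 at 38.1 and 13.96 against 28.6 and 38.6 CPM. Their log2 fold changes of 0.23 and 0.20 (standard errors 0.68 and 0.56) turned to -0.43 and -0.33 without that library. The desaturase FADS1 was at 154.4 and 156 CPM in untreated and 144 and 153.6 CPM in doxorubicin libraries. Both doxorubicin libraries were slightly below the untreated ones, with a log2 fold change of -0.22 (standard error 0.29). Its neighbor FADS2 was between 35.4 and 57.5 CPM, and exons of these 2 genes overlap on opposite strands. ACSL3, which activates fatty acids, and LPIN1, a phosphatidate phosphatase, had log2 fold changes of -0.03 and -0.02 (standard errors 0.43 and 0.40), both above 0 with library sizes alone and both lowest in untreated replicate 2.

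**Figure D4:**
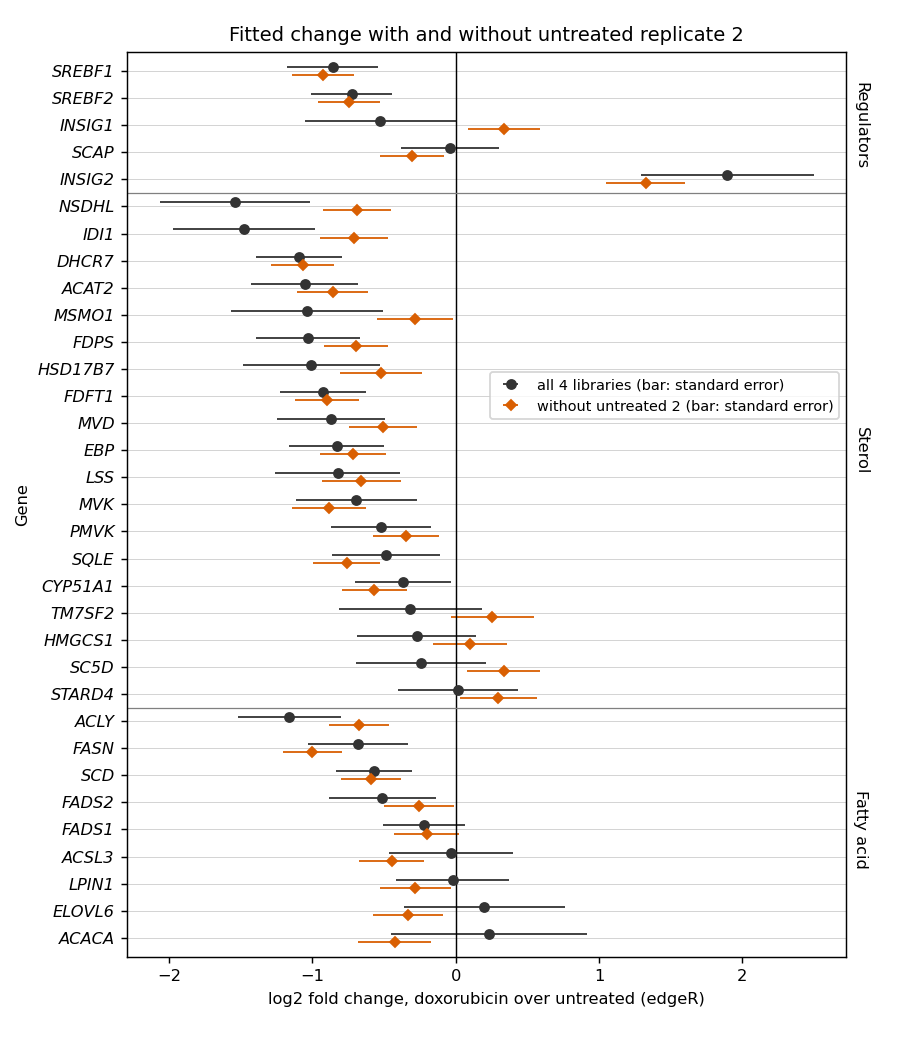
Fitted log2 fold change of doxorubicin over untreated cells with its standard error (edgeR), for all 4 libraries (black circles) and without untreated replicate 2 (orange diamonds). DHCR7, FDFT1, SREBF1, SREBF2 and EBP lie below 0 at nearly the same place in both fits, INSIG1 and ACACA change sides, and INSIG2 is above 1 in both.

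As lists, the sterol genes had a median log2 fold change of -0.83 with 18 of 19 below 0, and the fatty acid genes had one of -0.22 with 7 of 9 below 0, beside 0.01 over all genes tested. The median log2 CPM of the sterol genes was 5.68 and 5.71 in the untreated libraries, against 5.04 and 5.24 after doxorubicin. The 2 untreated medians were close, although untreated replicate 2 was higher in most single genes, as given beside the sums that follow. The median log2 CPM of the fatty acid genes was 6.82 and 5.85 in untreated and 6.43 and 6.61 in doxorubicin libraries, so that the untreated libraries enclosed the doxorubicin ones. The sterol median minus the fatty acid median was -1.13 and -0.13 in untreated and -1.39 and -1.36 in doxorubicin libraries, lower in both doxorubicin libraries. Without untreated replicate 2 the medians of log2 fold changes were -0.66 for the sterol and -0.43 for the fatty acid genes, with 15 of 19 and 9 of 9 below 0.

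Summed over the list, where a few abundant genes weigh most, the sterol genes took 1172 and 1537 CPM in untreated and 848 and 824 CPM in doxorubicin libraries. The fatty acid genes took 3077 and 2942 CPM in untreated and 2143 and 2027 CPM in doxorubicin libraries. In both sums the doxorubicin libraries were below the untreated ones and close to each other. Of the 19 sterol genes, 15 had their highest level in untreated replicate 2 and 0 their lowest, against 36.6% and 45.0% of all genes tested. That library was the highest in 3 and the lowest in 4 of the 9 fatty acid genes, against the same shares.

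**Figure D5:**
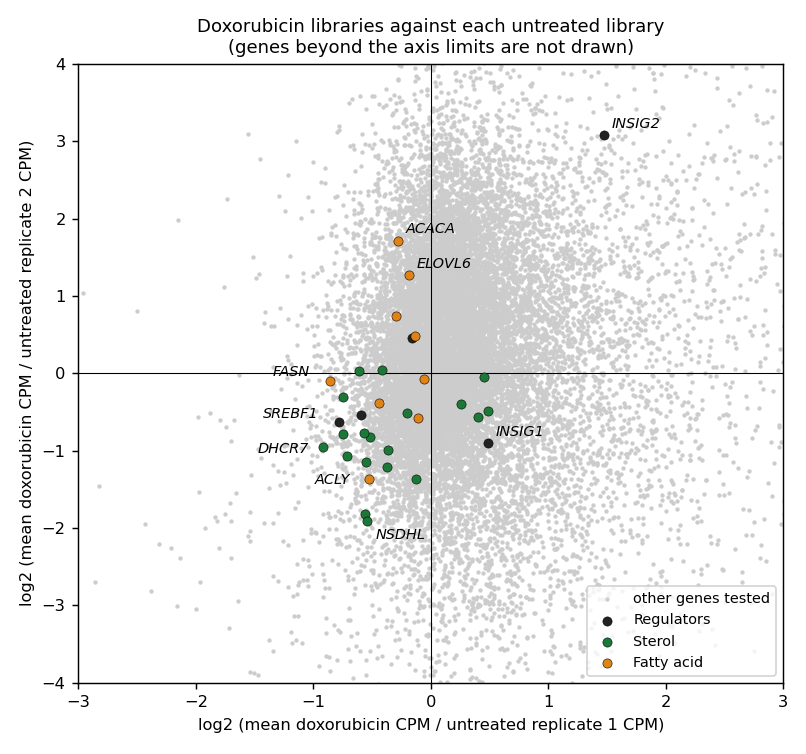
Log2 ratio of the mean doxorubicin CPM to untreated replicate 1 (x axis) and to untreated replicate 2 (y axis), for regulators (black), sterol genes (green), fatty acid genes (orange) and all other genes tested (grey). Both axes share the doxorubicin libraries, so the points are a description. INSIG2 is far up and right, at 12.8 and 4.22 CPM in the untreated libraries, and most sterol genes are in the lower left of the plane, where both ratios are below 0.

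Other genes of lipid metabolism, in 5 lists, gave counts without a common direction, and 0 of their genes had an unadjusted p-value under 0.05. Among 10 genes that cleave, hold or degrade SREBP, SCAP and INSIG, the median log2 fold change was 0.19 with 7 above 0. Both doxorubicin libraries were above both untreated ones in 4 and below them in 1, near the shares of all genes tested (30.3% and 11.5%). Among 10 genes of the prenyl branch, which uses the same isopentenyl units for protein prenylation, dolichol and ubiquinone, the median was 0.00 with 5 above and 5 below 0. Among 12 genes of sterol efflux, transport and storage, 11 passed the filter, with a median of 0.00 and 6 above 0. Both doxorubicin libraries were higher in 4 of them and lower in 1, against the same 30.3% and 11.5% of all genes. CH25H was left out by the filter, with at most 2 counts in a library.

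Among 13 further genes of fatty acid and glyceride synthesis, 12 passed the filter, with a median of 0.05 and 7 above 0, and both doxorubicin libraries were higher in 4 and lower in 2, against 30.3% and 11.5% of all genes. Among 12 genes of fatty acid oxidation the median was -0.24 with 8 below 0, and both doxorubicin libraries were lower in 3 and higher in 2, against 11.5% and 30.3% of all genes. In these 5 lists the edgeR test of all libraries called 0 genes. PDK4, an inhibitor of glucose oxidation in the mitochondrion, was singled out for its call without untreated replicate 2, a fit with 1 untreated library. Its log2 fold change there was 1.32, against 0.03 with all libraries. PDK4 was at 7.83 and 30.4 CPM in untreated and 15.6 and 27.96 CPM in doxorubicin libraries, and its groups overlapped.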

How the data were processed

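Counts of 4 RNA-seq libraries were used, 2 untreated and 2 given doxorubicin. Groups follow the sample titles, the treatment protocol and the series text. The titles read HepG2-nop53-mRNA-seq for the untreated and HepG2-p53-mRNA-seq for the doxorubicin libraries. They name no drug, so that doxorubicin is taken from the protocol and the series text. The treatment tag of the doxorubicin samples reads p53-miRNA and was not followed. The members and lists were chosen with earlier results of these data known, and 1 liver marker is not reported here.

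The authors trimmed reads with Cutadapt after FastQC, mapped them with HISAT2 to hg38 and deposited raw counts per gene symbol. HTSeq is named for counting, the file headers name the basic annotation of GENCODE release 31, and versions and the use of strand are not given in the sources used here. Exons of 15 of the 33 genes overlap a gene on the other strand. Those of 3 genes (CYP51A1, EBP and FADS1) overlap another entry on the same strand, which the use of strand cannot separate. In 5 genes pseudogenes are listed under the symbol, and the largest count of such a pseudogene was 15. Reads of these genes may be divided in more than 1 way.

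Levels are CPM of the column total. Tests used edgeR 4.0.16 in R 4.3.3 (filterByExpr, which left 17479 genes with all 33 among them, TMM, glmQLFit in its current form, glmQLFTest, prior count 0.125), with Benjamini-Hochberg adjustment over all genes tested. The standard error is the size of the log2 fold change over the square root of F. DESeq2 1.42.0, other scalings, filters and tests, the replicate block and each library left out were alternatives. The older quasi-likelihood method, counts of unadjusted p-values and the scaling of CPM were added after seeing the data. The quasi-likelihood fit was tested on simulated counts. Exact permutation used SciPy 1.17.1. Exon lengths and positions are of GENCODE release 44 (hg38), whose release differs from that of the counts, and upstream sequences are of RefSeq (GRCh38.p14), with 29 of the 33 genes matched. Named genes were all 33, with values in each library for the regulators, for genes with an unadjusted p-value under 0.05 and for genes whose groups did not overlap. Genes of the other lists were to be named at an unadjusted p-value under 0.05. The counts carry no molecular identifiers known here. With all 4 libraries, edgeR p-values rest on the spread between 2 libraries per group, moderated over all genes tested. Without untreated replicate 2, only the doxorubicin libraries give a spread.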

Additional observations from a re-analysis of the deposited data

How the results depend on the processing

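Of the alternatives, the test and the libraries changed counts of calls most, and the cause was not tested. Over all genes, calls numbered 89 in DESeq2, 46 in the edgeR exact test, 64 by likelihood ratio and 20 with the replicate block, against 0, while each of them called 0 of the 33 genes. With the replicate block 5 of the 33 had an unadjusted p-value under 0.05 (4 lower, 1 higher), against 11 (10 lower, 1 higher). So did 7 with library size alone and 7 with no filter, in both settings 6 lower and 1 higher. Over all 17479 genes, library size alone had 152 lower and 648 higher at that threshold, and the replicate block 450 and 623. With no filter 964 of 36677 genes were lower and 579 higher. The deviations of libraries that share a number correlated at 0.0219 over genes, which does not establish a pairing. Library size alone set the median of all genes at 0.17 and the median of the sterol genes at -0.68.

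With each library left out in turn, calls over all genes were between 0 and 8697 (815 without untreated replicate 2), calls among the 33 genes between 0 and 12 (2 without untreated replicate 2) and unadjusted p-values under 0.05 between 0 and 25 (19 without untreated replicate 2). Without either doxorubicin library the untreated spread alone set the error, and 0 were called. Genes of the 33 below the remaining untreated libraries were between 19 and 24, a count that leaving out a library cannot bring below 18. The count over all 17479 genes tested also rose, from 2003 with all libraries. It was 6735 without untreated replicate 1 (24 of the 33) and 4325 without untreated replicate 2 (24 of the 33). Without doxorubicin replicate 1 it was 3237 (19 of the 33), and without doxorubicin replicate 2 it was 3089 (21 of the 33). The median log2 fold change was between -0.90 and -0.64 for sterol genes and between -0.43 and -0.16 for fatty acid genes, and their difference between -0.72 and -0.23. INSIG2 was between 1.33 and 2.99, INSIG1 between -0.99 and 0.34, and INSIG2 minus INSIG1 between 0.99 and 3.97. Signs also turned for SCAP (-0.30 to 0.37), HMGCS1 (-0.49 to 0.10), TM7SF2 (-0.65 to 0.26), SC5D (-0.58 to 0.33), STARD4 (-0.14 to 0.30), ACACA (-0.43 to 1.63), ELOVL6 (-0.33 to 1.18), ACSL3 (-0.45 to 0.65) and LPIN1 (-0.28 to 0.39).

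Small values turned sign in other settings. STARD4 was -0.0395 with RLE factors, -0.0613 with upper-quartile factors, -0.0242 with a filter of 1 CPM in 2 libraries and -0.0404 in DESeq2. With library size alone SCAP, ACSL3 and LPIN1 were 0.11, 0.13 and 0.14, and with no filter 0.0058, 0.0032 and 0.026. With the replicate block ACSL3 and LPIN1 were 0.0602 and 0.0124. The older quasi-likelihood method, chosen after seeing the data, turned no sign.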
